A study of Gallus gallus with 6 samples.

Results

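miR-451 and miR-144 are microRNAs (miRNAs, small regulatory RNAs that guide repression of matching transcripts) best known from red blood cell precursors. Here their mature products were followed in abdominal fat of female broiler chickens (Gallus gallus), by name: every row of the deposited small RNA table named miR-451 or miR-144, either arm. That rule gave 3 of the 667 mature miRNAs, namely gga-miR-451, gga-miR-144-5p and gga-miR-144-3p, given below without the species prefix gga (5p and 3p are the arms from the 5′ and 3′ sides of the miR-144 hairpin). All 3 also passed the filter on low counts that left 238 miRNAs for testing. Abdominal fat was sampled at day 35 from birds given 50 IU of vitamin E (3 libraries, called vitamin E 1 to 3) and from controls (3 libraries, control 1 to 3). The trial had begun with 240 healthy chicks aged 1 day, divided among 5 diets that supplied 0, 20, 50, 75 or 100 IU of DL-α-tocopherol acetate. The labels do not print a dose beside the control samples, and name neither a strain nor a genotype. Whether each library stands for its own bird is not stated either. The p-values below therefore speak only to variation among these libraries, part of which may be technical.

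In vertebrates studied so far, the 2 hairpins are made from one primary transcript switched on by the erythroid factor GATA1, as worked out in mouse and zebrafish. The miR-144 hairpin is cut by Dicer in the usual way and can yield a miRNA from either arm. The miR-451 hairpin is too short for Dicer and is instead sliced by Argonaute2 and then trimmed, as shown in mouse and zebrafish, so it yields a product of one arm only. In mice, loss of the locus leaves red cells sensitive to oxidative stress. Bird red cells keep their nucleus, and fat is supplied with blood, so a bulk fat library can hold their RNA. In such bulk samples, fewer cells of a type and less RNA per cell cannot be told apart.

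In the chicken gene table of assembly GRCg7b, the gene with the older name gga-mir-451 (current symbol MIR451B) and MIR144 lie within 10 kb of each other. Both overlap the same long non-coding RNA gene, LOC121107271, and the protein-coding genes FAM222B, ERAL1 and FLOT2 lie within the same distance. Positions are left out, because the sources used here do not state the build behind the deposited miRNA table.

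Libraries held 5844435 to 7062595 counts with vitamin E and 5028671 to 7357204 in control. Pearson correlations of log2 abundance over the 238 tested miRNAs lay at 0.981 to 0.989 among vitamin E libraries, at 0.961 to 0.970 among controls and at 0.968 to 0.981 across the groups. TMM scaling factors, which correct library size for composition, were 1.01 to 1.05 with vitamin E and 0.860 to 1.03 in control, the lowest being that of control 1. Fat and stroma miRNAs summed to 257668 to 278126 CPM (counts scaled to a library total of 1e+06, on TMM-scaled library sizes) in the vitamin E group and 293080 to 314447 CPM in the control group. On plain library totals the groups overlapped in this sum, with control 1 below every vitamin E library. miR-26a-5p was the most abundant of them, and none of these miRNAs is exclusive to fat cells. The sum is therefore not read as fat cell content. The liver marker miR-122-5p averaged 6.07 ± 1.10 CPM in vitamin E fat, against 16.1 ± 4.21 CPM in control fat (SD, n = 3 each). Its counts were low, at 31, 42 and 47 in vitamin E 1, 2 and 3, and 89, 104 and 93 in control 1, 2 and 3. It did not pass (edgeR quasi-likelihood, Benjamini-Hochberg adjusted p = 0.325).

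By reads, miR-451 was by far the most abundant of the 3 erythroid miRNAs. It ranked 36 of 667 by mean CPM, between miR-146b-5p at 3205 CPM and miR-140-3p at 3022 CPM, with its own mean at 3158 CPM. Next above these stood novel_19 and miR-27b-3p, and next below miR-103-3p and miR-219b. The spread between libraries was wider than these steps, so the order of miR-451 among its nearest neighbours is not resolved. miR-144-5p ranked 103 and miR-144-3p 109.

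Read counts of miR-451 were 22723, 22102 and 32634 in vitamin E 1, 2 and 3, against 17392, 13785 and 9796 in control 1, 2 and 3. On the deposited TPM scale (counts scaled to 1e+06 by the plain library total) miR-451 stood at 3888, 3129 and 5353 in the vitamin E libraries and at 2609, 2741 and 1331 in the controls. On that scale every vitamin E library lay above every control, as it did for 10.9% of the tested miRNAs in that direction. On TMM-scaled library sizes miR-451 had 3838, 2983 and 5079 CPM in vitamin E fat, against 3032, 2729 and 1289 CPM in control fat, and vitamin E 2 then lay below control 1. Control 3 was the lowest library and vitamin E 3 the highest on both scales.

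Mean miR-451 was 3967 ± 1054 CPM in vitamin E fat, against 2350 ± 931 CPM in control fat (SD, n = 3 each). This is a log2 fold change of 0.76 with an SE of 0.37 and a 95% interval from -0.088 to 1.60, and it did not pass (edgeR quasi-likelihood test, Benjamini-Hochberg adjusted p = 0.627 over 238 miRNAs; unadjusted p = 0.0729). Of all tested miRNAs, 0.42% passed the adjusted threshold of 0.05, and 5.04% were higher at an unadjusted p under 0.05. From TPM means the fold was 1.85 and from CPM means 1.69. Without control 3 the log2 fold change was 0.43 and without vitamin E 3 it was 0.48, both over 1.5 times smaller. Counting error, with each read taken as an independent molecule, was small beside this spread. On that reckoning the counting coefficient of variation of miR-451 was 0.554% to 1.01% per library. The libraries of a group varied by 26.6% with vitamin E and 39.6% in control.

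Both miR-144 arms overlapped between the groups, and neither passed. Counts of miR-144-5p were 409, 510 and 628 in vitamin E 1, 2 and 3, against 985, 461 and 391 in control 1, 2 and 3. In TPM these were 70.0, 72.2 and 103 in vitamin E fat, against 148, 91.7 and 53.1 in control fat, so the highest and the lowest library were both controls. Mean miR-144-5p was 78.6 ± 16.6 CPM in vitamin E fat, against 105 ± 61.3 CPM in control fat (SD, n = 3 each; log2 fold change -0.42, SE 0.46, 95% interval -1.48 to 0.64; edgeR quasi-likelihood, Benjamini-Hochberg adjusted p = 0.842). The sign rested on control 1, without which the log2 fold change was 0.09, and it was -0.79 without control 3 and -0.67 without vitamin E 3.

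Counts of miR-144-3p, the arm studied most as a repressor in red cell precursors, were 475, 344 and 756 in vitamin E 1, 2 and 3, against 456, 537 and 496 in control 1, 2 and 3. Its TPM values were 81.3, 48.7 and 124 in vitamin E fat, against 68.4, 107 and 67.4 in control fat, and here the extremes were both vitamin E libraries. Mean miR-144-3p was 81.4 ± 35.6 CPM in vitamin E fat, against 83.7 ± 20.9 CPM in control fat (SD, n = 3 each; log2 fold change -0.04, SE 0.42, 95% interval -0.99 to 0.91; edgeR quasi-likelihood, Benjamini-Hochberg adjusted p = 0.981). Less the median of all tested miRNAs it was at 0.04, both with TMM factors and with library totals alone, the scaling under which the value itself turned positive (0.07). The log2 fold change was 0.23 without vitamin E 2, -0.45 without vitamin E 3, 0.19 without control 2 and -0.21 without control 3. The interval allows a change of up to 0.91 on the log2 scale upward and -0.99 downward, so a missed threshold does not show equal levels.

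**Figure D1:**
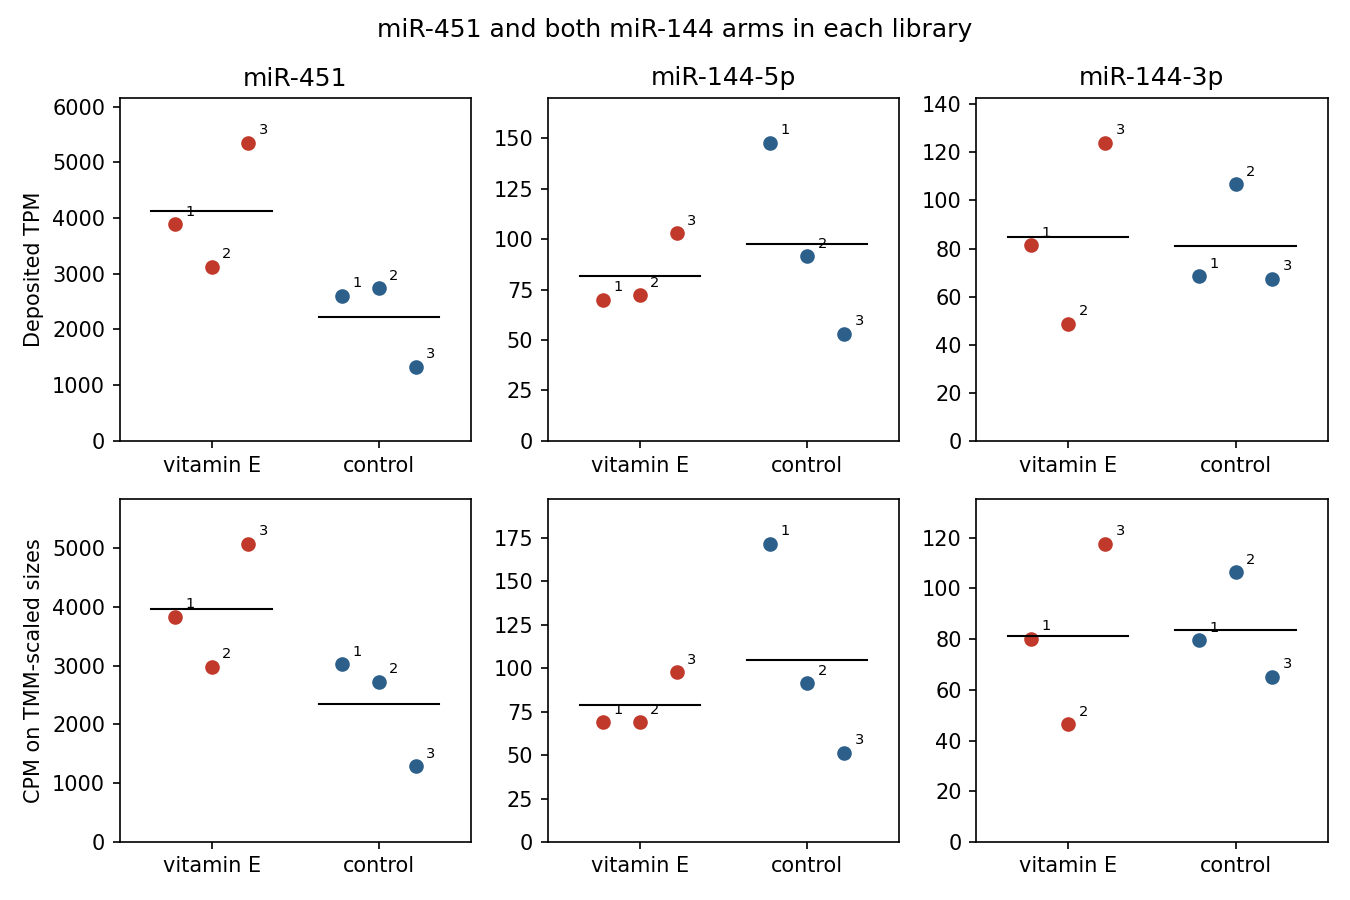
Abundance of miR-451, miR-144-5p and miR-144-3p in each library, as deposited TPM (upper row) and as CPM on TMM-scaled library sizes (lower row). Points are libraries with their replicate number and lines are group means (n = 3); miR-451 runs from 3129 to 5353 TPM with vitamin E and from 1331 to 2741 TPM in control, while both miR-144 arms overlap between the groups.

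Within each library, the ratio of miR-451 to miR-144 parted the groups. With both miR-144 arms summed, there were 25.7, 25.9 and 23.6 miR-451 reads per miR-144 read in vitamin E 1, 2 and 3, against 12.1, 13.8 and 11.0 in control 1, 2 and 3. The libraries of a group thus lay close together and the groups did not overlap. The ratio averaged 25.1 ± 1.28 in vitamin E fat, against 12.3 ± 1.40 in control fat (SD, n = 3 each), a mean log2 difference of 1.03 or 2.04-fold. The two-sided exact permutation p was 0.1, the smallest that 20 relabellings allow, and the Benjamini-Hochberg adjusted permutation p over the 4 ratios examined was 0.133. A ratio of counts within a library needs no scaling factor, and the exact 95% counting intervals of the ratio ran from 22.3 to 27.7 over the vitamin E libraries and from 10.3 to 14.7 over the controls. Such intervals leave out variation between libraries. They also take each read as an independent molecule, which the sources used here do not show, so they may be too narrow even for counting error.

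Taken against each arm singly, the ratio was again higher with vitamin E, with more scatter. The order of libraries inside a group was not always the same, and these ratios share their numerator, so they are not independent. miR-451 to miR-144-5p was 55.6, 43.3 and 52.0 in vitamin E 1, 2 and 3, and it was 17.7, 29.9 and 25.1 in control 1, 2 and 3 (mean log2 difference 1.08; exact permutation p = 0.1, adjusted 0.133). miR-451 to miR-144-3p was 47.8, 64.3 and 43.2 in vitamin E fat, against 38.1, 25.7 and 19.8 in control fat (mean log2 difference 0.93; exact permutation p = 0.1, adjusted 0.133). Neither ratio overlapped between the groups. With any 1 library left out, the mean log2 difference for the summed arms stayed between 0.96 and 1.12.

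**Figure D2:**
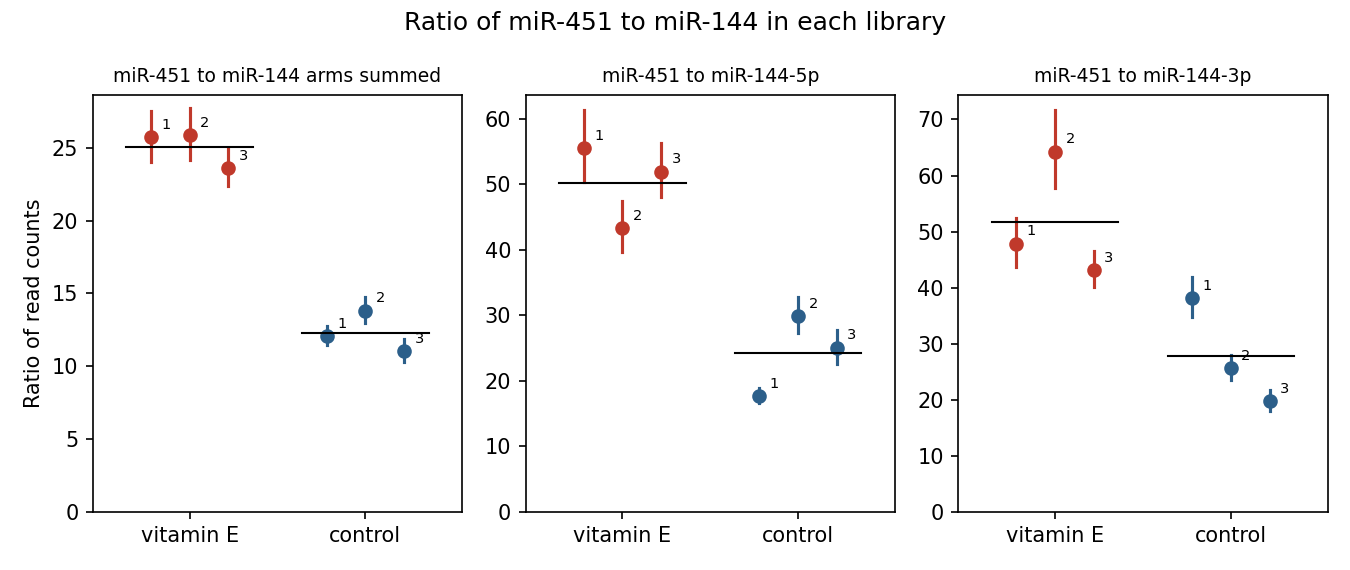
Ratio of miR-451 to miR-144 read counts in each library, for both miR-144 arms summed and for each arm. Points are libraries, bars exact 95% counting intervals and horizontal lines group means (n = 3); with the arms summed the vitamin E libraries lie at 23.6 to 25.9 and the controls at 11.0 to 13.8.

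Ratios that part 3 libraries from 3 others are not rare in this table. Over all pairs of tested miRNAs, 14.3% of log2 ratios did not overlap between the groups. Of the ratios of miR-451 to each of the 237 other tested miRNAs, 21.5% were higher in every vitamin E library than in every control, and 1.69% were lower. Of the 236 tested miRNAs other than the miR-144 arms, 9.32% stood higher relative to summed miR-144 in every vitamin E library, miR-451 among them. In an edgeR fit of the whole table with summed miR-144 as the library size, chosen after the ratios had been seen, miR-451 had a log2 fold change of 1.03 (SE 0.50). It did not pass there (edgeR quasi-likelihood, Benjamini-Hochberg adjusted p = 0.986; unadjusted p = 0.0453).

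The ratio to summed miR-144 had a narrow spread within groups. The log2 ratio had a within-group SD of 0.127, while the ratio of miR-451 to the 235 other tested miRNAs had a median within-group SD of 0.723 and a smallest one of 0.167, for miR-499-5p. A sum of both arms is better compared with other sums: over the 51 other hairpins with both arms tested, the ratio of miR-451 to the summed arms had a median within-group SD of 0.605 and a smallest one of 0.199, for miR-2188. Thus 0 of these 51 sums and 0 of the 235 single miRNAs had a narrower ratio to miR-451 than summed miR-144. For single arms 8 of the 235 had a smaller spread than miR-144-5p (0.303), and 20 had a smaller spread than miR-144-3p (0.398). With so few libraries per group, an SD of 0.127 is not resolved from 0.167 or 0.199, so the narrow spread is not shown to be particular to miR-144. This comparison, made after the ratios had been seen, is a description of 6 libraries and was not tested.

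The narrow spread shows in the levels. Summed miR-144 was 149, 115 and 215 CPM in vitamin E 1, 2 and 3, and 251, 198 and 117 CPM in control 1, 2 and 3. Inside each group the libraries kept the same order for summed miR-144 as for miR-451. That order is not particular to miR-144: among others, miR-2188-5p, miR-499-5p, miR-199-5p, miR-34a-3p, miR-128-1-5p, miR-2954 and miR-181a-5p kept it too. Its share over all tested miRNAs was not counted. Vitamin E 2 and control 3 had nearly the same summed miR-144, and at that level they held 2983 CPM and 1289 CPM of miR-451. Across all 6 libraries, which mix the 2 groups, Pearson's r of log2 CPM was 0.47 for miR-451 and miR-144-5p (exact permutation p = 0.313; Spearman's rho 0.60, p = 0.242). For miR-451 and miR-144-3p it was 0.45 (exact permutation p = 0.364; rho 0.54, p = 0.297). The smallest adjusted p over the 3 pairs was 0.406 for r and 0.297 for rho (exact permutation, Benjamini-Hochberg). Without vitamin E 3 and control 3, the libraries farthest from the median of miR-451, r was -0.34 and -0.085. The positive r was thus seen only with those libraries included. Leaving out such extremes narrows the range of miR-451, and the few libraries left cannot fix the sign of r. Groups of 3 are too small for a correlation of their own.

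**Figure D3:**
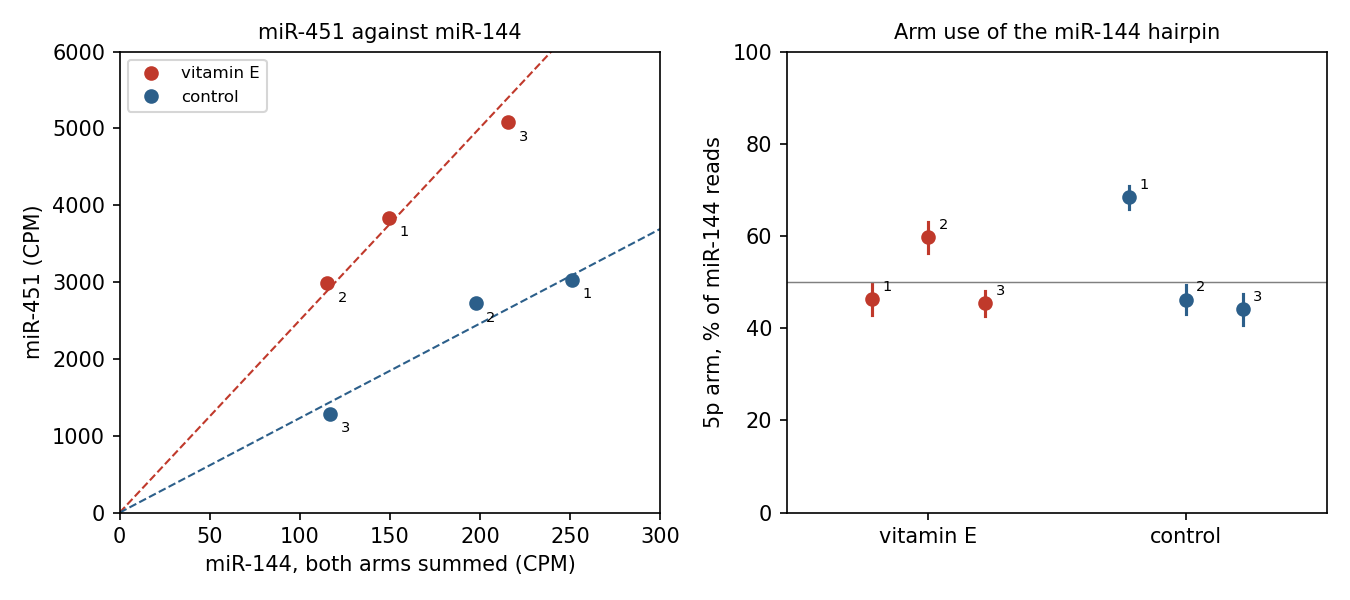
Left, miR-451 against both miR-144 arms summed, in CPM, one point per library, with a dashed line through 0 at each group's mean ratio (25.1 with vitamin E, 12.3 in control). Right, the 5p arm's percentage of miR-144 reads per library with exact 95% binomial intervals; control 1 (68.4%) and vitamin E 2 (59.7%) lie above 50% and the other 4 libraries below.

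Which arm of miR-144 led in reads changed between libraries: the 3p arm in 4 of them and the 5p arm in control 1 and vitamin E 2. The 5p arm took 46.3%, 59.7% and 45.4% of miR-144 reads in vitamin E 1, 2 and 3, and 68.4%, 46.2% and 44.1% in control 1, 2 and 3. The exact (Clopper-Pearson) 95% intervals of control 1 (65.9% to 70.8%) and vitamin E 2 (56.3% to 63.0%) lay above those of the other 4 libraries, which overlapped each other and ended at 49.6% at most. By counting error alone, 1 library of each group thus stood apart, but such intervals do not measure variation between libraries. The 5p to 3p ratio did not separate the groups (mean log2 difference -0.15, exact permutation p = 0.9, adjusted 0.9). Without control 1 that difference was 0.31. The correlation between the arms over the 6 libraries was 0.41 (exact permutation p = 0.406; rho 0.60, p = 0.242), and 0.85 without control 1 and control 3, the libraries farthest from the median of miR-144-5p.

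Among the 52 hairpins with both arms tested, the log2 arm ratio of miR-144 had the 23rd largest SD over libraries, near the middle of the set. Its leading arm changed between libraries, as it did for 5 of the 52 hairpins in all, miR-144 included. The arm ratio did not overlap between the groups for 13.5% of the 52.

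By a rule on likeness of pattern, the tested miRNAs with the highest Pearson r to miR-451 over the 6 libraries (log2 CPM, of 237 compared) were miR-2188-5p at 0.960, miR-499-5p at 0.938, novel_51 at 0.903, miR-1552-5p at 0.872 and miR-199-5p at 0.865. miR-499-5p, also the single miRNA with the narrowest ratio spread, is known from striated muscle. It had 34.8, 27.3 and 59.8 CPM in vitamin E 1, 2 and 3, and 40.4, 33.9 and 14.9 CPM in control 1, 2 and 3. All 5 tested miRNAs of the striated muscle list stood above 0 (median log2 fold change 0.89, smallest unadjusted p 0.0221 for miR-133b at 1.63), and 0 were called in the edgeR quasi-likelihood test. Of all tested miRNAs, 45.8% were higher and 0.42% were called, with a median of -0.07. Counts of miR-133b were low, at 23, 50 and 45 in vitamin E 1, 2 and 3, and 4, 11 and 21 in control 1, 2 and 3. The striated muscle list summed to 301 to 583 CPM in vitamin E libraries and 276 to 518 CPM in controls. Most of that was miR-133a-3p, at 0.05 on the log2 scale, -0.31 without vitamin E 2 and -0.17 without control 2. By name, miR-133a-3p, miR-133b and miR-133c-3p are of one family, so the 5 members are not all separate observations. The part of this list in the miR-451 values was not tested. miR-144-5p came 64th and miR-144-3p 66th in that order, which takes no account of the groups. miR-2188-5p had 726, 419 and 852 CPM in vitamin E fat, against 531, 421 and 255 CPM in control fat, with the highest and lowest library the same as for miR-451. It did not pass either (log2 fold change 0.73, SE 0.37; edgeR quasi-likelihood, Benjamini-Hochberg adjusted p = 0.631). To summed miR-144 the closest of 236 were miR-128-1-5p at 0.917, miR-34a-3p at 0.897, miR-204 at 0.845, novel_116 at 0.835 and miR-2954 at 0.830, and miR-451 came 51st at 0.53. All of these r values come from the same 6 libraries and are descriptions.

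Other miRNAs known to be abundant in maturing red cells, mostly from work in mammals, were compared next. Of 14 names on that list 7 matched rows of the table, with 8 tested rows. Of these rows 2 were higher, 6 lower and 0 called in the edgeR quasi-likelihood test. In that test 45.8% of all tested miRNAs were higher and 0.42% called, so 0 calls among 8 rows says little about the list. The smallest unadjusted p in the list was 0.217. Its median log2 fold change was -0.14, beside -0.07 over all tested miRNAs. The number higher was 4 of 8 with library totals alone or without control 1, and 1 of 8 with upper-quartile factors or without control 3. Its summed level was 24975 to 28885 CPM with vitamin E and 22444 to 45432 CPM in control. Most of that was miR-92-3p and miR-16-5p (15835 and 6547 CPM on average in vitamin E fat), so the sum is not read as red cell content.

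miR-92-3p, of the miR-17-92 group, led this list in abundance at 15835 ± 477 CPM in vitamin E fat, against 18406 ± 13666 CPM in control fat (SD, n = 3 each; log2 fold change -0.22). Its opposite arm miR-92-5p had the smallest p of the list, at -0.85. Both values rested on control 1, without which they were 0.51 for miR-92-3p and 0.12 for miR-92-5p. miR-183 had a log2 fold change of 0.73, which rested on vitamin E 3 and was -0.79 without it. Log2 fold changes were -0.37 for miR-16-2-3p, -0.19 for miR-15a and -0.07 for miR-107-3p. Adjusted p for the list ran from 0.744 upwards (edgeR quasi-likelihood, Benjamini-Hochberg).

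Of miRNAs known to fall as red cell precursors mature, 4 of 6 names matched rows, and 5 rows were tested: 4 were higher, 1 was lower and 0 were called (edgeR quasi-likelihood; smallest unadjusted p 0.209). The median log2 fold change was 0.11, beside -0.07 over all tested miRNAs, of which 45.8% were higher and 0.42% called. miR-223, a miRNA of granulocytes, stood at 640 ± 127 CPM in vitamin E fat, against 496 ± 96.8 CPM in control fat (SD, n = 3 each; log2 fold change 0.37). miR-221-3p, which represses the receptor KIT in human erythroid precursors, was the most abundant, with a log2 fold change of 0.11, which was -0.17 once control 1 was left out. The remaining values were 0.46 for miR-221-5p, 0.06 for miR-155 and -0.03 for miR-24-3p, and the signs of miR-155 and miR-24-3p also turned when single libraries were left out. The list name miR-222 matched no row exactly, so miR-222a and miR-222b were not counted. Of these, miR-222a was at -1.39 (-0.27 without control 1) and miR-222b-3p at 0.40, and neither passed (edgeR quasi-likelihood, Benjamini-Hochberg adjusted p = 0.627 for miR-222a and 0.842 for miR-222b-3p).

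Markers of white blood cells, which blood brings into fat, and of the vessel wall were compared as well. The leukocyte list had 14 tested rows, 5 higher, 9 lower and 0 called (edgeR quasi-likelihood; smallest unadjusted p 0.105), with a median log2 fold change of -0.06. Over all tested miRNAs 45.8% were higher and 0.42% were called, with a median of -0.07. With library totals alone, 9 were higher, and with upper-quartile factors 3; without control 2 it was 9 of 15 and without vitamin E 3 it was 8 of 14. Its summed level was 58743 to 64841 CPM with vitamin E and 45388 to 74830 CPM in control, with miR-181a-5p the most abundant (0.06 on the log2 scale, -0.24 when control 3 is left out) and miR-146a-3p having the smallest p (-0.69). Most of the sum was miR-181a-5p and miR-146c-5p (23684 and 21419 CPM on average in vitamin E fat), where miR-223 had 640 CPM. It is therefore not read as leukocyte content. miR-223 and miR-155 stand on both this list and the one before. miR-126-3p, the endothelial miRNA, averaged 25241 ± 4548 CPM in vitamin E fat, against 28616 ± 6001 CPM in control fat (SD, n = 3 each; log2 fold change -0.18). The part of blood content in the miR-451 values was not tested.

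**Figure D4:**
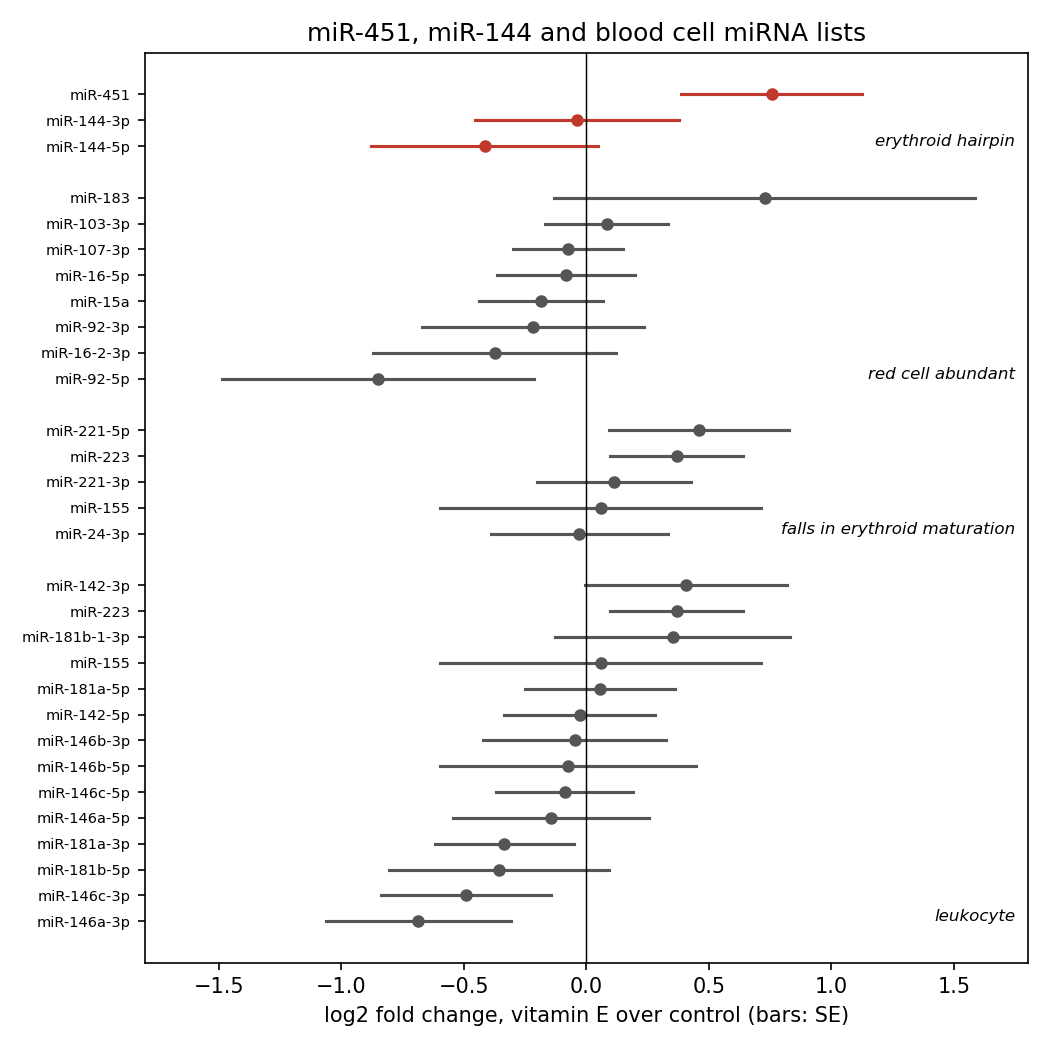
Log2 fold change, vitamin E over control, of miR-451, both miR-144 arms and the tested members of 3 blood cell lists; points are edgeR estimates, bars their SE, and the line at 0 marks equal levels. miR-451 lies at 0.76 and miR-144-3p and miR-144-5p at -0.04 and -0.42; no miRNA shown passed the adjusted threshold.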

How the data were processed

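Small RNA libraries of abdominal fat were grouped by the treatment label (3 vitamin E, 3 control). The counts deposited by the authors are whole read counts per mature miRNA, per the file headers and values. In the deposited TPM columns each of those counts is divided by its library total and multiplied by 1e+06, without regard to length. The sources used here name no aligner, counting rule, miRNA reference, build or library kit. No miRNA sequences were used here.

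Counts were fitted with edgeR 4.0.16 (R 4.3.3): TMM factors, filterByExpr by group (minimum count 10, minimum total 15), robust quasi-likelihood F test, Benjamini-Hochberg adjustment over 238 miRNAs and a threshold of 0.05. The common biological coefficient of variation was 0.441. The fit was tested on simulated data. For ratios of counts, all 20 relabellings of the libraries were enumerated in an exact two-sided permutation test (Python 3.11.15). Alternatives were 19 other fits of the table, with limma 3.58.1 and DESeq2 1.42.0 among the tools, of which 18 were planned.

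Members, lists and tests were chosen with earlier results of these data known. List names were matched without species prefix, copy number and arm. Named miRNAs are the members and, from each list, those past the threshold, the most abundant one and that of smallest p, plus as many as 4 more from each erythroid list. To these come the 5 most alike miRNAs for each pattern and the 3 on each side of miR-451 in level. The part of the rule on shared seeds was not applied, for lack of sequences.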

Additional observations from a re-analysis of the deposited data

How the results depend on the processing

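miR-451 kept a positive log2 fold change in all 19 alternative fits and passed in none (0.43 to 1.03; Benjamini-Hochberg adjusted p 0.340 to 0.986 over these fits). With single libraries left out, its log2 fold change was 0.43 to 0.94, that of miR-144-5p -0.79 to 0.090 (without control 1) and that of miR-144-3p -0.45 to 0.23. miR-144-3p was at 0.066 with library totals alone, a scaling that shifted all miRNAs, and at 0.073 with summed miR-144 as library size, which holds the sum of its arms level by construction. In the striated muscle list 4 to 5 of 5 members were higher over the alternatives with the filter, and 7 of 9 without it. In the fat and stroma list 4 of 9 were higher and 0 called (edgeR quasi-likelihood; median -0.01, smallest unadjusted p 0.135, miR-27b-3p at -0.38, miR-26a-5p at -0.28). In the main fit 45.8% of all tested miRNAs were higher and 0.42% were called, with a median of -0.07. miR-122-5p, the 1 tested liver miRNA, had -1.40 (edgeR quasi-likelihood, Benjamini-Hochberg adjusted p = 0.325). The log2 difference of the ratio to summed miR-144 was 0.96 to 1.12 over 10 alternatives, and those to miR-144-5p and miR-144-3p were 0.87 to 1.25 and 0.70 to 1.18. Among these alternatives, deposited TPM and the replicate block could not move the differences. Library totals cancel in such a ratio, and the blocks are balanced. The 5p to 3p difference ran from -0.42 to 0.31 with single libraries left out, positive only without control 1. Without the 2 farthest libraries, r of miR-451 with miR-144-5p was -0.34 and with miR-144-3p -0.085.

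Over all miRNAs 1 passed (18 with unadjusted p under 0.05). Upper-quartile factors gave 0 in edgeR (18 with unadjusted p under 0.05), no filter 8, DESeq2 7, limma on log2(TPM + 1) 3, limma on log2(TPM + 0.1) 5, the replicate block 5 and summed miR-144 as library size 2. Single libraries left out gave 0 to 1 in edgeR (11 to 31 with unadjusted p under 0.05). The cause of these differences was not tested. With library totals alone the median log2 fold change shift over miRNAs was 0.107; less the median of all tested miRNAs, miR-451 was then at 0.86 and miR-144-3p at 0.04, where TMM factors gave 0.83 and 0.04.

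Libraries of equal number showed no shared deviation from their group means (r = -0.16, 0.03 and -0.02 over the tested miRNAs). With the replicate number as a block, log2 fold changes were 0.80 for miR-451, -0.27 for miR-144-5p and -0.10 for miR-144-3p, and the mean log2 difference of the ratio to summed miR-144 was 1.03 (exact sign-flip p = 0.25, the smallest that 3 pairs allow). Lists under the block had 0 members called, where 5 of all 238 tested miRNAs were called, so this says little about the lists.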

Other observations

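Across the 52 hairpins with both arms tested, the rarer arm stood highest relative to the commoner one in control 1. The median deviation of that log2 ratio from its mean over libraries was 0.01, -0.12 and 0.08 in vitamin E 1, 2 and 3 and 0.22, -0.11 and 0.12 in control 1, 2 and 3. In control 1, the library with the largest 5p share of miR-144, 31 of the 52 hairpins lay above their own mean, and in vitamin E 2, the library with the next largest share, 18 did. By its mean log2 ratio over libraries, the rarer arm of miR-144 is the 3p arm, but that naming rests on control 1 itself. Without control 1 the mean would make the 5p arm the rarer one, and the 5p arm led only in control 1 and vitamin E 2. Whether miR-144 moved with or against this pattern in control 1 (log2 5p to 3p ratio 1.11) therefore cannot be told. The part of this pattern in the arm use of miR-144 was not tested.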
